A study of Mus musculus with 4 samples.

Results

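The antiviral interferon-stimulated genes were followed in polymorphonuclear myeloid-derived suppressor cells (PMN-MDSCs), neutrophil-like cells that restrain T cells, isolated from the spleens of mouse pups on postnatal day 7. The members were 39 genes taken by symbol from a list of the type I interferon response, out of 28585 genes listed for each library, and all 39 were found. Each gene was measured by bulk RNA sequencing in 4 libraries, 2 from *Dhps*ΔLysm pups (labelled Dhps cko) and 2 from *Dhps* fl/fl pups (labelled Dhps flox). Both genotypes carry the floxed allele of *Dhps*, which encodes deoxyhypusine synthase, the enzyme that begins the hypusination of the translation factor eIF5A, on a C57BL/6J background. *Dhps*ΔLysm pups also carry a Cre recombinase in the *Lysm* (*Lyz2*) locus, which is active in macrophages, monocytes and neutrophils alike. The labels give each library a genotype and a replicate number. Neither the labels nor the methods say how many pups gave each library, so the p-values measure only the spread between these libraries, which may be technical.

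Type I interferons bind a receptor made of IFNAR1 and IFNAR2, whose kinases JAK1 and TYK2 phosphorylate STAT proteins, STAT2 among them. With IRF9 these form ISGF3, which binds the interferon-stimulated response element (ISRE) in the promoters of its target genes. The targets include sensors of foreign RNA and DNA, enzymes and binding proteins that block viral replication, and factors such as IRF7 that amplify the response. Many immune cells hold a basal level of these transcripts without infection.

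Promoter windows from RefSeq (GRCm38.p6), reaching from 250 bases before to 50 bases after each start site, matched 29 of the 39 members. The core letters of the ISRE, GAAA and GAAA again with any 2 bases between them, were searched on both strands, overlapping matches included. They were found for 16 of these 29 members (55.2%), whereas 3.99% of all 27025 genes with a window held them. The longer form that ends in a further CT, every match of which contains the shorter one, was found for 10 of the 29 members (34.5%) and for 0.303% of all genes. The STAT-type letters TTCNNNGAA, which can overlap either form, were found for 6 of the 29 members (20.7%) and for 9.55% of all genes. A match describes the letters of the window and not a bound site.

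Promoter stretches of 8 members are printed 5′ to 3′ on the strand of the gene, because they show these letters in front of members of several families, and because 4 of them belong to near-identical pairs. Capitals mark each match of the core letters or of their reverse complement, and overlapping matches run together. All stretches end before the RefSeq start site.
*Isg15*, chr4:156200849-156200928, minus strand: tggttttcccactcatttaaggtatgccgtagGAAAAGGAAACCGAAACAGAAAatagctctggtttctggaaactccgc
*Ifit1*, chr19:34640764-34640843, plus strand: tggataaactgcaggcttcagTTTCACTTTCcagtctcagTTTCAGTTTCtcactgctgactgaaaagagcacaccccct
*Ifit3*, chr19:34583349-34583448, plus strand: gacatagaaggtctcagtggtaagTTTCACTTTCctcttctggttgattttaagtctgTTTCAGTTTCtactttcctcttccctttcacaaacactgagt
*Ifit3b*, chr19:34607745-34607844, plus strand: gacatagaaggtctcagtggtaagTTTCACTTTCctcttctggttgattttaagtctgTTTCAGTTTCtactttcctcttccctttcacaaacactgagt
*Oas1a*, chr5:120907526-120907595, minus strand: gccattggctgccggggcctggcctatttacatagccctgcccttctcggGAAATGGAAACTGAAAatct
*Oas1g*, chr5:120887614-120887681, minus strand: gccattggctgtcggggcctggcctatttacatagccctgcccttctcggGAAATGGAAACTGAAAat
*Oas3*, chr5:120777700-120777769, minus strand: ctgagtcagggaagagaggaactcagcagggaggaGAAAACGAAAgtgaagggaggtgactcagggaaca
*Ddx60*, chr8:61928017-61928086, plus strand: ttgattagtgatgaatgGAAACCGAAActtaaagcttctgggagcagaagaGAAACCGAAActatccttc

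The *Isg15* stretch held 3 overlapping matches, beginning 78, 72 and 66 bases before the start site. The *Ifit3* and *Ifit3b* stretches were identical over their 100 printed bases, and the whole windows of the pair were identical at 259 of 260 aligned bases. *Oas1a* and *Oas1g* held overlapping matches, the first beginning 20 and 18 bases before the start site, and their windows were identical at 261 of 294 aligned bases.

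**Figure D1:**
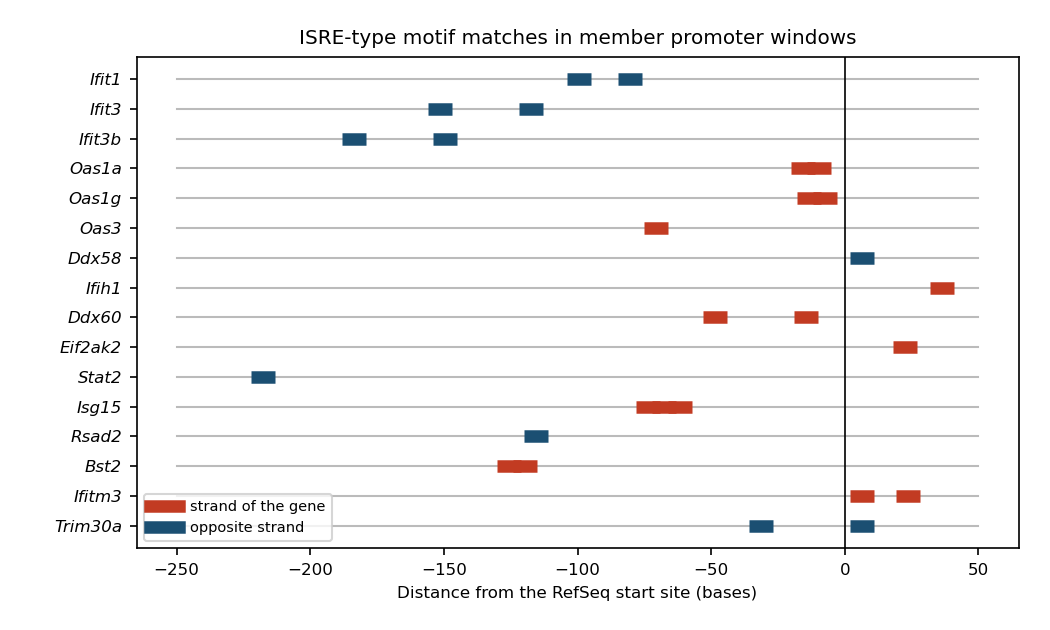
Position of matches to the core ISRE letters (bars) in the promoter windows of the 16 members that held them, with distance from the RefSeq start site in bases on the x axis and 1 gene per row. Red bars lie on the strand of the gene and blue bars on the opposite strand, and in *Isg15*, *Oas1a*, *Oas1g* and *Bst2* the matches overlap.

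The deposited values are FPKM, fragment numbers adjusted for how long a transcript is and how many fragments a library mapped, with no scaling between libraries stated. The FPKM summed to between 304281 and 319286 per library, and between 10611 and 10729 genes reached 1 FPKM. FPKM hold no counts, but steps between low values of single-exon genes gave approximate depths between 29600000 and 31700000 mapped fragments. The targeted gene *Dhps* was listed at 2.38 and 2.59 FPKM for *Dhps*ΔLysm against 3.57 and 3.11 FPKM for *Dhps* fl/fl, 74.4% of the latter on average (adjusted p = 0.63 from limma), and both *Dhps*ΔLysm libraries were below both *Dhps* fl/fl libraries. Neutrophil markers were abundant in all 4 libraries, *Ngp* with the highest mean, and summed to between 72120 and 79000 FPKM. *Ly6g*, which encodes the antigen used in the CD11b+Ly6Clo/-Ly6G+ sort, was at 222.16 and 241.58 FPKM in *Dhps*ΔLysm and 194.95 and 184.80 FPKM in *Dhps* fl/fl.

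The comparison of genotypes used limma on log2(FPKM + 0.1) and covered 17948 genes, those whose mean reached 0.1 FPKM. Log2 fold changes below are *Dhps*ΔLysm minus *Dhps* fl/fl on this scale, which understates the changes of low genes, whereas folds are ratios of mean FPKM. With Benjamini-Hochberg adjustment over all genes, 1 gene passed an adjusted p of 0.05 (0.00557% of genes tested), and it was not a member. No member passed (0 of 39). An exact permutation test of 2 against 2 libraries cannot give a p below 0.33. At an unadjusted p under 0.05, which is not a call, 25 of the 39 members were higher and 0 were lower in *Dhps*ΔLysm, against 4.72% (847) and 2.28% (410) of all genes tested. With FPKM rescaled to a constant sum these all-gene counts were 633 higher and 494 lower, and the member counts were 20 higher and 0 lower. Both *Dhps*ΔLysm libraries lay above both *Dhps* fl/fl libraries for 32 of the 39 members, a pattern shown by 20.0% of all genes tested, and below them for 1, a pattern shown by 16.0%. The difference between genotypes was positive and larger than either difference between replicates for 28 members, as for 14.0% of all genes tested. The members were chosen with earlier results of these libraries known, so these counts are descriptions.

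The median log2 fold change was 0.48 over the 37 members tested and 0.01 over all genes tested. Relative to the *Dhps* fl/fl mean of each gene, the median member was at 0.50 and 0.48 in the *Dhps*ΔLysm libraries and at -0.02 and 0.02 in the *Dhps* fl/fl libraries (log2). Libraries of 1 genotype sat close together, with a median absolute log2 difference of 0.09 between *Dhps*ΔLysm replicates and 0.12 between *Dhps* fl/fl replicates. The number of members with an unadjusted p under 0.05 was 14 when *Dhps*ΔLysm replicate 1 was left out and 15 when *Dhps*ΔLysm replicate 2 was, and 20 and 18 without replicates 1 and 2 of *Dhps* fl/fl. Of the 25, 11 had an unadjusted p under 0.05 in all 4 fits with a library left out (*Oas1a*, *Oas2*, *Oas3*, *Oasl2*, *Irf7*, *Irf9*, *Isg15*, *Cmpk2*, *Ifitm3*, *Xaf1* and *Rtp4*), and *Ddx58* and *Parp14* had it in none. By fold, 7 of the 37 tested members were at 2-fold or more, 9 between 1.5-fold and 2-fold, 13 between 1.2-fold and 1.5-fold and 8 below 1.2-fold. The 14 tested members below 2 FPKM in *Dhps* fl/fl had a median fold of 1.98, and the 23 at or above that level a median of 1.23. The *Dhps* fl/fl mean that split the members is also the denominator of the fold, so this contrast is partly built in.

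**Figure D2:**
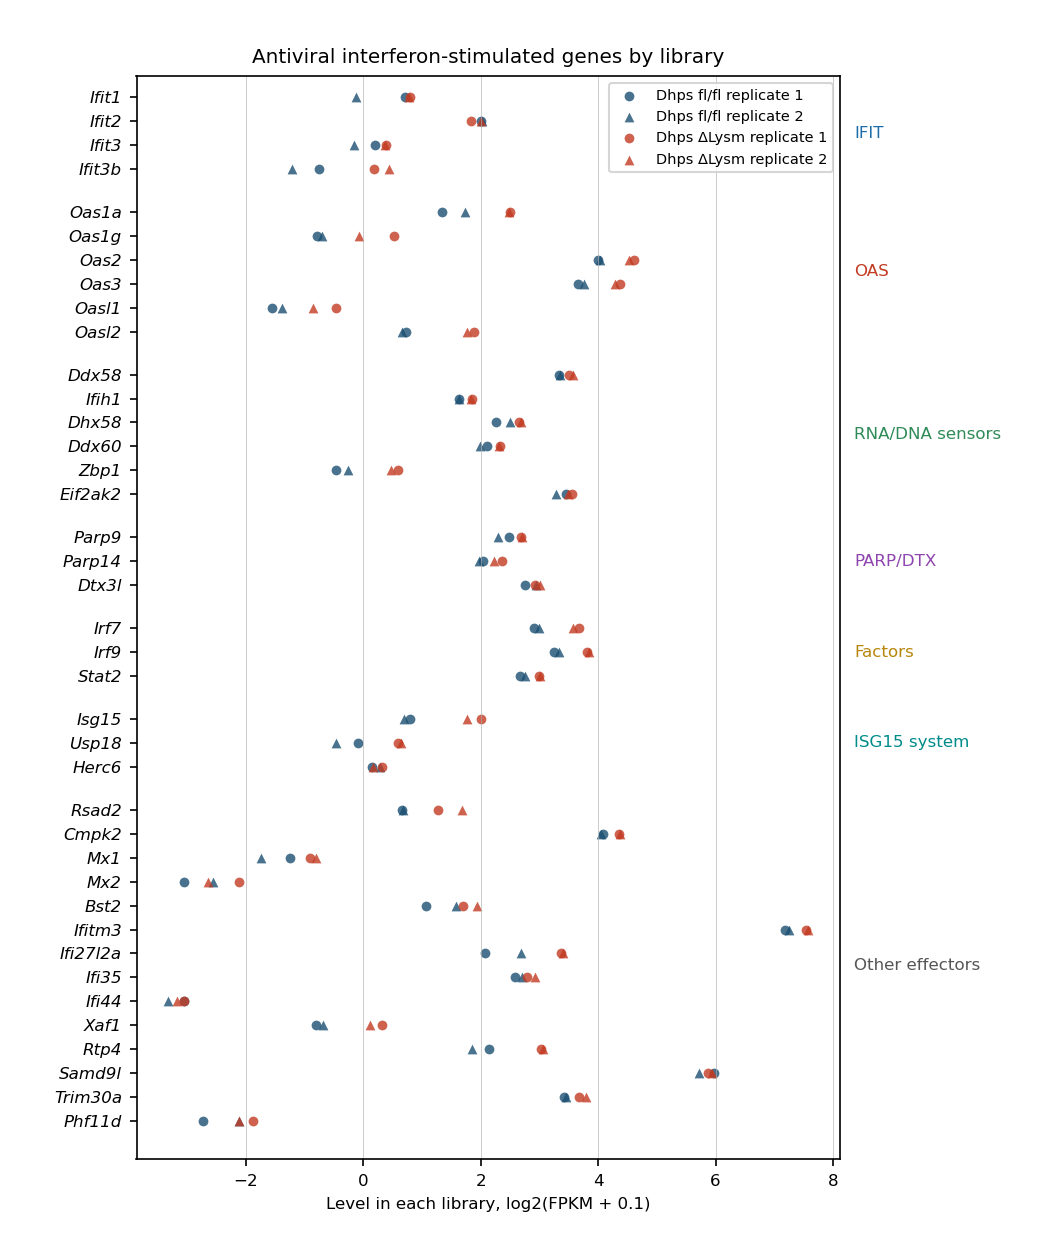
Level of each of the 39 members in each library, as log2(FPKM + 0.1) on the x axis, with genes in rows by family. Blue points are *Dhps* fl/fl and red points *Dhps*ΔLysm, circles replicate 1 and triangles replicate 2; for 32 genes both red points lie right of both blue points, and for *Ifit2* both lie left of them.

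The transcription factors of the response were all higher in both *Dhps*ΔLysm libraries. *Irf7* (ENSMUSG00000025498), the factor that drives the later wave of interferon production, was at 12.65 and 11.79 FPKM in *Dhps*ΔLysm and 7.40 and 7.81 FPKM in *Dhps* fl/fl. Its fold was 1.61 and its log2 fold change 0.68 (standard error 0.08, unadjusted p = 0.000394, adjusted p = 0.35 from limma). *Irf9*, the DNA-binding subunit of ISGF3, was at 13.89 and 14.33 FPKM against 9.43 and 9.96 FPKM, a log2 fold change of 0.54 (standard error 0.07, adjusted p = 0.38 from limma). Its partner *Stat2* was at 7.83 and 7.91 FPKM against 6.29 and 6.67 FPKM, a smaller log2 fold change of 0.28 (standard error 0.08, adjusted p = 0.60 from limma). *Irf7* and *Irf9* kept an unadjusted p under 0.05 with any 1 library left out, and *Stat2* in 2 of those 4 fits. Of the exon bases of *Irf9*, 2.3% overlap *Rnf31* on the same strand, and no 50-base stretch of *Irf7* was shared with another gene.

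The OAS family makes or resembles the synthetases of 2′-5′ oligoadenylate, a messenger made in response to double-stranded RNA. All 6 members were higher in both *Dhps*ΔLysm libraries, and all 6 had an unadjusted p under 0.05, but *Oas1g* and *Oasl1* had it in only 1 of the 4 fits with a library left out. *Oas2* was the most abundant, at 24.36 and 22.94 FPKM in *Dhps*ΔLysm and 15.86 and 16.29 FPKM in *Dhps* fl/fl, a fold of 1.47 (log2 fold change 0.55, standard error 0.07, adjusted p = 0.35 from limma). *Oas3* was at 20.63 and 19.39 FPKM against 12.51 and 13.40 FPKM, a fold of 1.54 (log2 fold change 0.62, standard error 0.07, adjusted p = 0.35). For both genes the genotypes were well apart, and replicates differed by at most 0.10 on the log2 scale. *Oasl2*, an OAS-like gene with ubiquitin-like domains, had the highest fold of the family, with 3.60 and 3.31 FPKM against 1.55 and 1.47 FPKM (2.29-fold, log2 fold change 1.14, standard error 0.13, adjusted p = 0.35). Its neighbour *Oasl1*, a known inhibitor of *Irf7* translation, was low, at 0.62 and 0.45 FPKM against 0.24 and 0.28 FPKM. At the approximate depths these levels stand for about 43 and 30 fragments against 16 and 18, and its log2 fold change of 0.81 had a standard error of 0.30.

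*Oas1a*, a catalytically active synthetase, was at 5.52 and 5.47 FPKM in *Dhps*ΔLysm and 2.44 and 3.21 FPKM in *Dhps* fl/fl (1.95-fold). *Oas1g* was at 1.34 and 0.85 FPKM against 0.48 and 0.51 FPKM (2.21-fold). Because 57.6% of the 50-base stretches of *Oas1a* transcripts also occur in *Oas1g*, reads of the pair could be split in ways that cannot be seen here. The FPKM of the pair summed to 6.86 and 6.32 in *Dhps*ΔLysm and to 2.92 and 3.72 in *Dhps* fl/fl and did not overlap between genotypes. *Oas2*, *Oas3*, *Oas1g* and *Oas1a* lie together on chromosome 5 of GRCm38, from 120730333 to 120907521.

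The IFIT family, which binds viral RNA that lacks the host cap, was the least uniform. Its 4 members lie in 1 cluster on chromosome 19, from 34550694 to 34650009. *Ifit3b* was at 1.03 and 1.26 FPKM in *Dhps*ΔLysm and 0.49 and 0.33 FPKM in *Dhps* fl/fl, the largest log2 fold change of the members tested, 1.30 (standard error 0.27, adjusted p = 0.49 from limma). *Ifit3*, with the same promoter letters over the printed stretch, was at 1.21 and 1.19 FPKM against 1.05 and 0.79 FPKM (log2 fold change 0.36, standard error 0.21, adjusted p = 0.79). The log2 fold change of *Ifit3* was 0.55 and 0.18 without *Dhps* fl/fl replicate 1 and 2, respectively. Both genes were higher in both *Dhps*ΔLysm libraries, but 51.2% of the 50-base stretches of *Ifit3* occur in *Ifit3b*, so their separate values are uncertain. Their summed FPKM was 2.24 and 2.45 in *Dhps*ΔLysm and 1.54 and 1.12 in *Dhps* fl/fl, a fold of 1.76.

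*Ifit1*, the founding cap-sensing member, was at 1.64 and 1.61 FPKM in *Dhps*ΔLysm and 1.54 and 0.82 FPKM in *Dhps* fl/fl. The 2 *Dhps* fl/fl libraries differed from each other more than the genotypes did (log2 fold change 0.49, standard error 0.31, adjusted p = 0.80), and the log2 fold change of *Ifit1* was 0.91 without *Dhps* fl/fl replicate 1 and 0.07 without replicate 2. *Ifit2*, which also promotes cell death, was the most abundant of the family and the 1 member below in both *Dhps*ΔLysm libraries, at 3.48 and 3.89 FPKM against 3.93 and 3.95 FPKM. Its difference was smaller than that between the *Dhps*ΔLysm replicates (log2 fold change -0.10, standard error 0.11, adjusted p = 0.89), and was -0.02 and -0.17 without *Dhps*ΔLysm replicate 1 and 2.

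ISG15 is a ubiquitin-like protein that is joined to host and viral proteins, a process in which HERC6 acts as the ligase in mice and which USP18 reverses. *Isg15* was at 3.89 and 3.30 FPKM in *Dhps*ΔLysm and 1.63 and 1.52 FPKM in *Dhps* fl/fl, a fold of 2.28 (log2 fold change 1.14, standard error 0.14, unadjusted p = 0.000508, adjusted p = 0.36 from limma). *Usp18*, which also shuts down signalling at IFNAR2, was at 1.41 and 1.46 FPKM against 0.84 and 0.62 FPKM (log2 fold change 0.90, standard error 0.21, adjusted p = 0.53). Both genes were about 2-fold higher in both *Dhps*ΔLysm libraries. *Herc6* did not share this pattern, at 1.14 and 1.02 FPKM against 1.00 and 1.12 FPKM, with overlapping genotypes and a log2 fold change of 0.02 whose sign turned with TPM scaling, quantile normalization and without *Dhps*ΔLysm replicate 1 or *Dhps* fl/fl replicate 1. Of the exon bases of *Herc6*, 13.7% overlap *Gm45193* on the same strand.

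The sensors of foreign nucleic acid were higher in both *Dhps*ΔLysm libraries for all 6 members, by smaller amounts except for *Zbp1*. *Zbp1*, a sensor of Z-form nucleic acid that can start necroptosis, was at 1.41 and 1.28 FPKM in *Dhps*ΔLysm and 0.62 and 0.73 FPKM in *Dhps* fl/fl (1.99-fold, log2 fold change 0.90, standard error 0.20, adjusted p = 0.51 from limma). *Ddx58*, which encodes RIG-I, was at 11.17 and 11.75 FPKM against 10.02 and 10.09 FPKM, a log2 fold change of 0.19 (standard error 0.07, adjusted p = 0.71). *Ddx60*, a helicase linked to RIG-I, was at 4.93 and 4.83 FPKM against 4.19 and 3.85 FPKM (log2 fold change 0.27). *Dhx58*, which encodes the regulator LGP2, was at 6.20 and 6.32 FPKM against 4.68 and 5.55 FPKM (log2 fold change 0.29, or 0.17 without *Dhps* fl/fl replicate 1). *Dhx58* and *Ddx58* were close to the unadjusted threshold in limma (0.0498 and 0.0474) and passed it in 1 and 3, respectively, of the other settings of scale, filter and model. *Ifih1*, which encodes MDA5, was at 3.52 and 3.48 FPKM against 3.00 in both *Dhps* fl/fl libraries (log2 fold change 0.22, unadjusted p = 0.0915). *Eif2ak2*, which encodes the RNA-activated kinase PKR, was at 11.62 and 11.04 FPKM against 10.82 and 9.65 FPKM (log2 fold change 0.15, unadjusted p = 0.156), and its log2 fold change was 0.23 and 0.07 without *Dhps* fl/fl replicate 1 and 2.

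The PARP and DTX members act together in ADP-ribosylation and ubiquitin transfer, and lie in 1 cluster on chromosome 16, from 35832874 to 35972605. *Parp9* was at 6.36 and 6.39 FPKM in *Dhps*ΔLysm and 5.46 and 4.82 FPKM in *Dhps* fl/fl (log2 fold change 0.31, standard error 0.10, adjusted p = 0.64 from limma). *Parp14* was at 5.01 and 4.58 FPKM against 3.99 and 3.81 FPKM (log2 fold change 0.29, standard error 0.10, adjusted p = 0.68). The folds were 1.24 and 1.23, without overlap. *Dtx3l*, the ubiquitin ligase that pairs with PARP9, overlapped between genotypes, at 7.47 and 7.91 FPKM against 6.61 and 7.58 FPKM (log2 fold change 0.12, standard error 0.10, adjusted p = 0.84), with 0.02 and 0.21 without *Dhps* fl/fl replicate 1 and 2. Exon bases of *Dtx3l* and *Parp9* overlap on opposite strands, for 8.0% of *Dtx3l* and 9.4% of *Parp9*, and whether the authors' counting used strand is not given in the sources used here.

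Of the 14 other effectors, *Ifitm3*, which blocks the fusion of viruses with endosomes, was the most abundant member of all. Its level was 186.79 and 190.59 FPKM in *Dhps*ΔLysm and 145.15 and 151.52 FPKM in *Dhps* fl/fl, a fold of 1.27 (log2 fold change 0.35, standard error 0.05, unadjusted p = 0.00135, adjusted p = 0.41 from limma). *Rtp4*, a chaperone-like inhibitor of viral replication, was at 8.03 and 8.22 FPKM against 4.29 and 3.49 FPKM (2.09-fold, log2 fold change 1.05, standard error 0.12, adjusted p = 0.35). *Rtp4* shares 13.9% of its exon bases with *Gm45338* on the same strand. *Ifi27l2a*, a small membrane protein gene, was at 10.18 and 10.52 FPKM against 4.11 and 6.31 FPKM (1.99-fold, log2 fold change 1.01, standard error 0.21, adjusted p = 0.49). *Ifi27l2a* varied between the *Dhps* fl/fl replicates by 0.61 on the log2 scale, less than the difference between genotypes.

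*Rsad2*, which encodes viperin, and *Cmpk2*, a nucleotide kinase gene next to it on chromosome 12 from 26442746 to 26479837, were both higher in both *Dhps*ΔLysm libraries by different amounts. *Rsad2* was at 2.32 and 3.11 FPKM against 1.48 and 1.49 FPKM (1.83-fold, log2 fold change 0.81, standard error 0.18, adjusted p = 0.51 from limma). *Cmpk2* was at 20.44 and 20.65 FPKM against 16.75 and 16.49 FPKM (1.24-fold, log2 fold change 0.30, standard error 0.06, adjusted p = 0.49), and kept an unadjusted p under 0.05 with any 1 library left out. The difference between the 2 genes was not tested. *Xaf1*, a gene that promotes apoptosis, was at 1.14 and 0.98 FPKM against 0.47 and 0.52 FPKM (2.14-fold, log2 fold change 0.96, standard error 0.22, adjusted p = 0.51). *Trim30a*, a regulator of innate signalling, was at 12.58 and 13.70 FPKM against 10.55 and 10.78 FPKM (1.23-fold, log2 fold change 0.30, standard error 0.08, adjusted p = 0.56).

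The remaining 7 effectors had no unadjusted p under 0.05 or were not tested. *Bst2*, which encodes the virus tether tetherin, was at 3.13 and 3.72 FPKM against 2.00 and 2.90 FPKM, without overlap (log2 fold change 0.48, unadjusted p = 0.0699). The log2 fold change of *Bst2* was 0.23 without *Dhps* fl/fl replicate 1 and 0.74 without replicate 2. *Ifi35* was at 6.81 and 7.46 FPKM against 5.90 and 6.41 FPKM, also without overlap (log2 fold change 0.21, unadjusted p = 0.0807), and 16.8% of its exon bases overlap *Gm11626* on the opposite strand. *Samd9l*, a translation inhibitor and the second most abundant member, overlapped, at 58.11 and 61.60 FPKM against 62.42 and 52.41 FPKM (log2 fold change 0.06, standard error 0.10, and from -0.061 to 0.19 with 1 library left out). The other 4 were below 0.5 FPKM in every library. *Mx1*, whose product is defective in C57BL/6 mice, was at 0.43 and 0.47 FPKM against 0.32 and 0.20 FPKM (log2 fold change 0.63, standard error 0.32, or 0.39 without *Dhps* fl/fl replicate 2). *Phf11d* was at 0.17 and 0.13 FPKM against 0.05 and 0.13 FPKM, overlapped between genotypes and passed the filter on low values only through *Dhps*ΔLysm, with a log2 fold change of 0.42 that was 0.12 and 0.73 without *Dhps* fl/fl replicate 1 and 2. *Mx2* and *Ifi44* did not reach a mean of 0.1 FPKM and were not tested, with *Mx2* between 0.02 and 0.13 FPKM and *Ifi44* between 0 and 0.02 FPKM, at most about 10 and 3 fragments in a library.

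**Figure D3:**
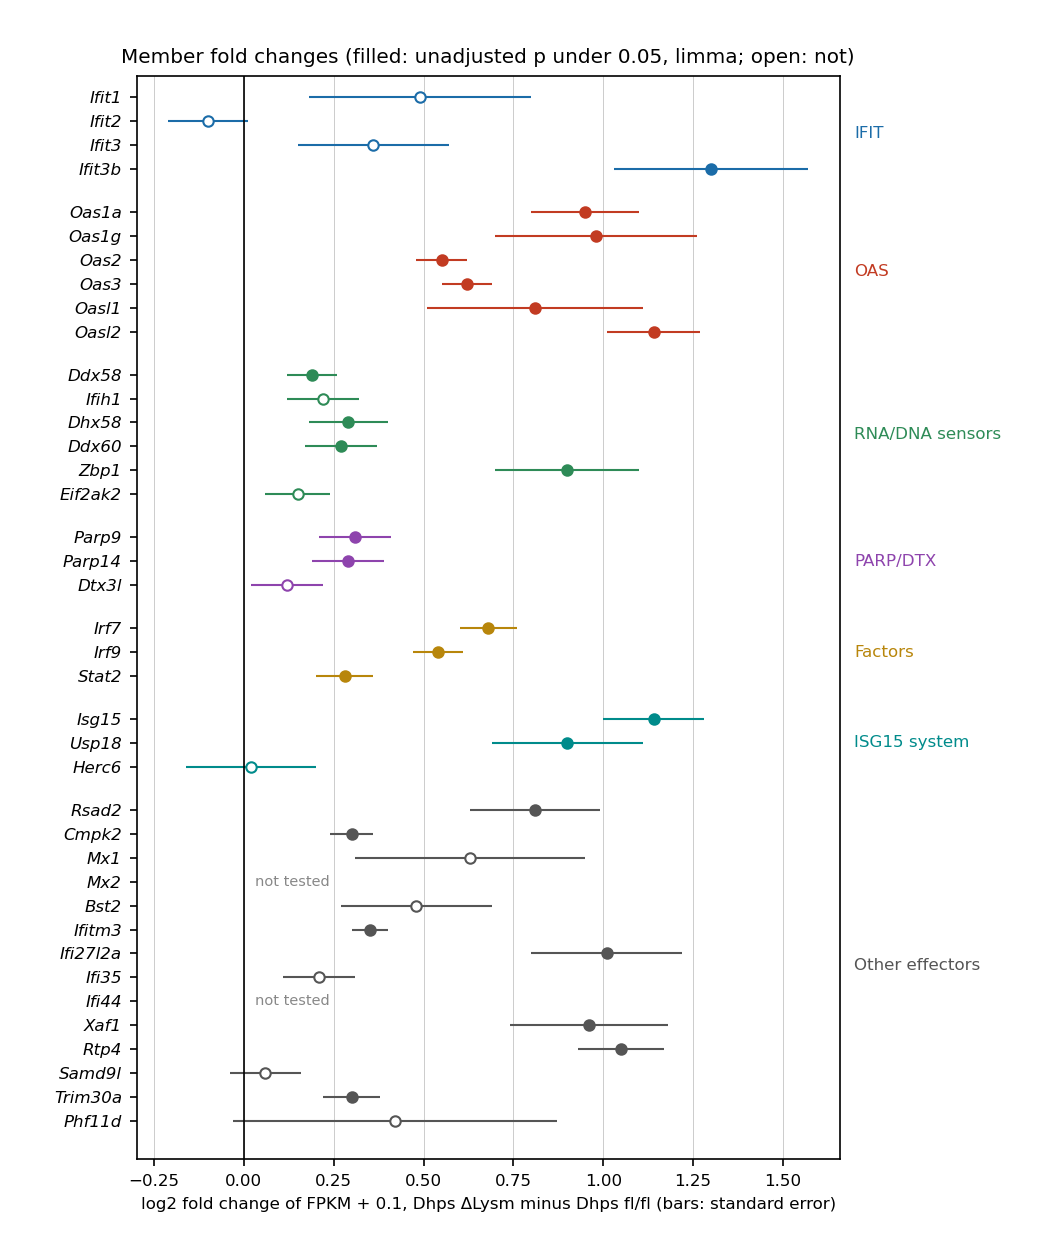
Log2 fold change of each member, *Dhps*ΔLysm minus *Dhps* fl/fl on log2(FPKM + 0.1), with bars for the standard error from limma and genes in rows by family. Filled points have an unadjusted p under 0.05 (25 of 39 members); *Ifit2* is the 1 point left of 0, and *Mx2* and *Ifi44* were not tested.

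Members with the core ISRE letters in their windows, without them and with no window were all found among the higher genes. Among the 16 members with a match, 11 had an unadjusted p under 0.05 and the median log2 fold change was 0.42 (from 0.15 to 1.30). Among the 12 tested members whose windows held no match, 6 had an unadjusted p under 0.05 and the median was 0.36 (from -0.10 to 1.14). *Irf7*, *Irf9*, *Oasl2* and *Xaf1* were in the second group, and so were *Ifit2*, *Herc6*, *Samd9l* and *Dtx3l*. Among the 9 tested members with no window, 8 had an unadjusted p under 0.05 and the median was 0.63 (from 0.29 to 1.05). The differences between the groups of genes were not tested.

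**Figure D4:**
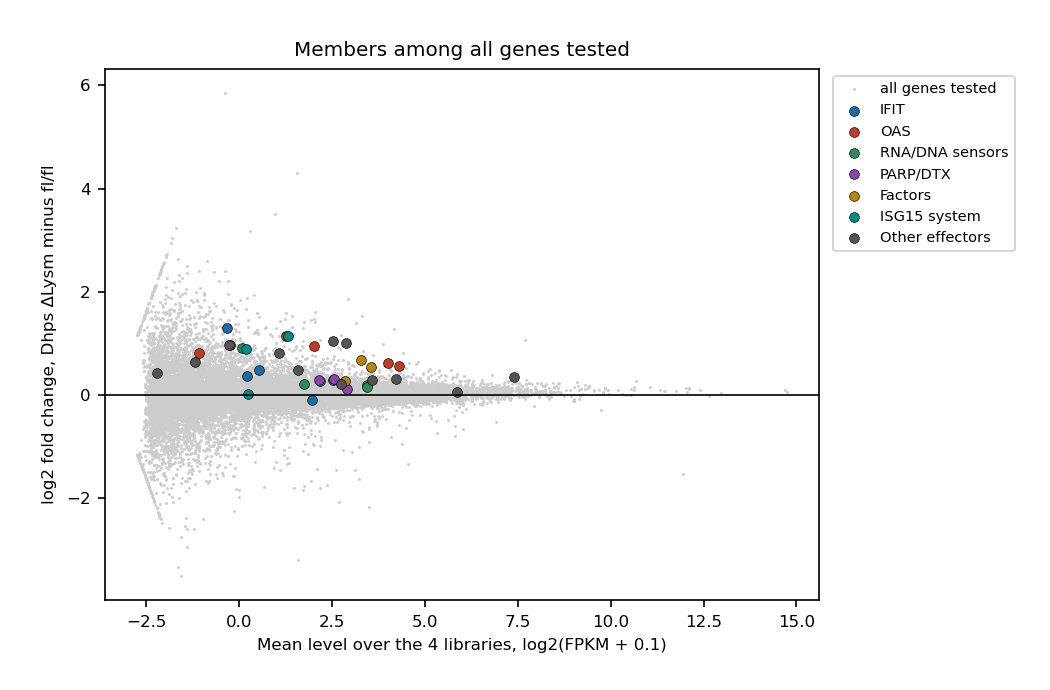
Log2 fold change (y axis, *Dhps*ΔLysm minus *Dhps* fl/fl) against mean level over the 4 libraries (x axis, log2(FPKM + 0.1)) for the 17948 genes tested, in grey, with the 37 tested members coloured by family. Members lie between -0.10 and 1.30, and 36 of the 37 lie above 0, against 52.2% of all genes tested.

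The upstream parts of the pathway, from lists also chosen with earlier results known, showed smaller differences. Of the 20 type I and type III interferon genes sought, *Ifnk* and *Ifnz* were listed, at no more than 0.03 FPKM. The other 18 were not found by symbol among the genes listed, so they have no values here. *Ifng*, the type II interferon, was listed at 0 in all 4 libraries. Of the 6 receptor genes, 0 had an unadjusted p under 0.05 (limma), and 0 had an adjusted p under 0.05. *Ifnar1* was at 14.74 and 14.82 FPKM in *Dhps*ΔLysm and 14.21 and 13.56 FPKM in *Dhps* fl/fl, a log2 fold change of 0.09 (standard error 0.07). *Ifnar2* was at 23.16 and 24.49 FPKM against 21.73 and 23.42 FPKM (log2 fold change 0.08, standard error 0.07). The other receptor genes had log2 fold changes of -0.03 for *Ifngr1*, 0.12 for *Ifngr2*, 0.12 for *Ifnlr1* and -0.03 for *Il10rb*.

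Among kinases and other factors, 2 of 10 had an unadjusted p under 0.05. *Irf3*, the factor activated by the sensors, was at 10.24 and 10.21 FPKM against 8.77 and 8.89 FPKM (log2 fold change 0.21, adjusted p = 0.65). The receptor kinases overlapped between genotypes, with log2 fold changes of -0.03 for *Jak1* and -0.06 for *Tyk2*. Of 6 inhibitors, *Socs3* was higher at the unadjusted threshold (log2 fold change 0.31, adjusted p = 0.67). Of the 14 tested genes of upstream sensing, so was *Tmem173*, listed under its newer symbol *Sting1*, which encodes the adaptor of cytosolic DNA sensing. It was at 5.19 and 5.63 FPKM against 3.99 and 3.97 FPKM (log2 fold change 0.43, standard error 0.10, adjusted p = 0.51).

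A further list of 61 interferon-stimulated genes outside the members, of which 59 were tested, had 26 with an unadjusted p under 0.05 on the higher side and 1 on the lower side, and 0 with an adjusted p under 0.05. Its median log2 fold change was 0.26. Over all pathway lists, the 32 genes higher at the unadjusted threshold became 18 without *Dhps*ΔLysm replicate 1, 11 without its replicate 2 and 21 without *Dhps* fl/fl replicate 1. The genes with at least 1 FPKM and the largest log2 fold changes at the unadjusted threshold were *Slfn5* (0.91), *Ifi47* (0.87), *Ifi209* (0.66), *Cnp* (0.61), *Ifi207* (0.55), *Gbp2* (0.53) and *Epsti1* (0.48). *Epsti1* had the lowest p of the list, at 12.75 and 12.70 FPKM in *Dhps*ΔLysm and 9.37 and 8.86 FPKM in *Dhps* fl/fl (adjusted p = 0.41 from limma). The other genes of that level at the unadjusted threshold were between 0.19 for *Sp100* and 0.44 for *Ifi203*: *Lgals3bp*, *Ifi27*, *Ifi30*, *Psmb9*, *Ifitm1*, *Ifi204*, *Tap1*, *Trafd1*, *Trim30d*, *Psmb8*, *Ifit1bl2*, *Helz2*, *Ube2l6*, *Parp10* and *Adar*. A list of 13 genes that lean to type II interferon had 11 tested, 2 at the unadjusted threshold, *Cd74* (0.64) and *Irgm2* (0.42), and a median of 0.41.

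Markers of several other cell types were also higher in *Dhps*ΔLysm, whereas the summed erythroid and plasmacytoid dendritic cell markers overlapped between genotypes. Over all genes tested, 52.2% had a log2 fold change above 0, and 4.72% were higher with an unadjusted p under 0.05 (limma). In bulk samples, a different number of cells of a type and a different amount of RNA per cell cannot be told apart. Of 12 monocyte and macrophage markers, 12 were higher and 6 had an unadjusted p under 0.05. Their FPKM summed to 393.9 to 402.7 in *Dhps*ΔLysm and 325.8 to 328.9 in *Dhps* fl/fl, with *Ly6c2* the most abundant, and their median log2 fold change was 0.32. *C1qb*, a complement gene of macrophages, was at 27.28 and 32.28 FPKM against 20.29 and 18.13 FPKM (log2 fold change 0.63, adjusted p = 0.47 from limma). Over the lists of cell types other than neutrophils, 15 markers were higher at the unadjusted threshold, but 4 without *Dhps*ΔLysm replicate 1 and 8 without its replicate 2.

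All 8 B cell markers were higher, 5 of them with an unadjusted p under 0.05. Their sum was 65.43 to 67.97 FPKM in *Dhps*ΔLysm and 41.51 to 51.06 FPKM in *Dhps* fl/fl, with *Ighm* the most abundant. The T and NK cell markers summed to 15.6 to 18.88 FPKM against 9.30 to 13.34 FPKM (2 of 10 at the unadjusted threshold), with *Trbc2* the most abundant and *Klrb1c* and *Ncr1* at 0 in some libraries. Eosinophil markers summed to 10.5 to 12.06 FPKM against 8.52 to 8.78 FPKM (1 of 6), with *Siglecf* the most abundant and *Prg3* at 0 in 3 libraries. Conventional dendritic cell markers summed to 4.95 to 5.51 FPKM against 3.05 to 4.24 FPKM (0 of 6), with *Itgax* the most abundant.

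Plasmacytoid dendritic cells are strong producers of type I interferon. Their marker *Siglech* was at 0.17 and 0.18 FPKM against 0.09 and 0.08 FPKM, and their 8 markers summed to 7.52 to 8.34 FPKM in *Dhps*ΔLysm and 5.71 to 11.37 FPKM in *Dhps* fl/fl, with *Ly6d*, also a B cell precursor gene, the most abundant and the 1 at the unadjusted threshold. The highest sum came from *Klk1*, at 5.04 FPKM in *Dhps* fl/fl replicate 1 and 0.10 to 0.24 FPKM in the other libraries, a gene singled out after its values were seen. Without *Klk1* the sums were 8.16 and 7.28 FPKM in *Dhps*ΔLysm against 6.33 and 5.61 FPKM, without overlap. Most of each sum was *Ly6d*, at 6.02 and 5.45 FPKM against 4.16 and 3.74 FPKM, so the sums largely follow that gene. The remaining markers went both ways. Log2 fold changes were 0.57 for *Siglech*, 0.45 for *Clec10a* and 0.25 for *Ccr9*, but -0.32 for *Cox6a2* and -0.06 for *Tcf4*. *Pacsin1*, which was not tested, averaged 0.035 FPKM against 0.05 FPKM. Erythroid markers summed to 730.0 to 876.6 FPKM against 604.8 to 911.2 FPKM (0 of 7), with *Hbb-bs* the most abundant, and endothelial and stromal markers to 20.54 to 25.17 FPKM against 17.25 to 20.02 FPKM (0 of 6), with *Col1a1* the most abundant. Across the 11 neutrophil markers the median log2 fold change was 0.10, and 1 was at the unadjusted threshold, *Ly6g*. The part of these cells in the levels of the members was not tested.

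Sex-linked genes moved with genotype as well. The 4 Y-linked genes measured, *Eif2s3y* the most abundant, summed to 7.07 to 8.07 FPKM in *Dhps*ΔLysm and 15.62 to 17.64 FPKM in *Dhps* fl/fl (4 of 4 lower with an unadjusted p under 0.05). *Xist* was at 27.54 and 20.27 FPKM against 16.25 and 17.17 FPKM. Every library held Y-linked transcripts and *Xist* together. The paper states that mice of both sexes were used, the labels used here give no sex, and the part of sex in the levels of the members was not tested. *Lyz2*, the locus of the Cre insertion, averaged 34.5% of the level in *Dhps* fl/fl libraries (adjusted p = 0.083 from limma).

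**Figure D5:**
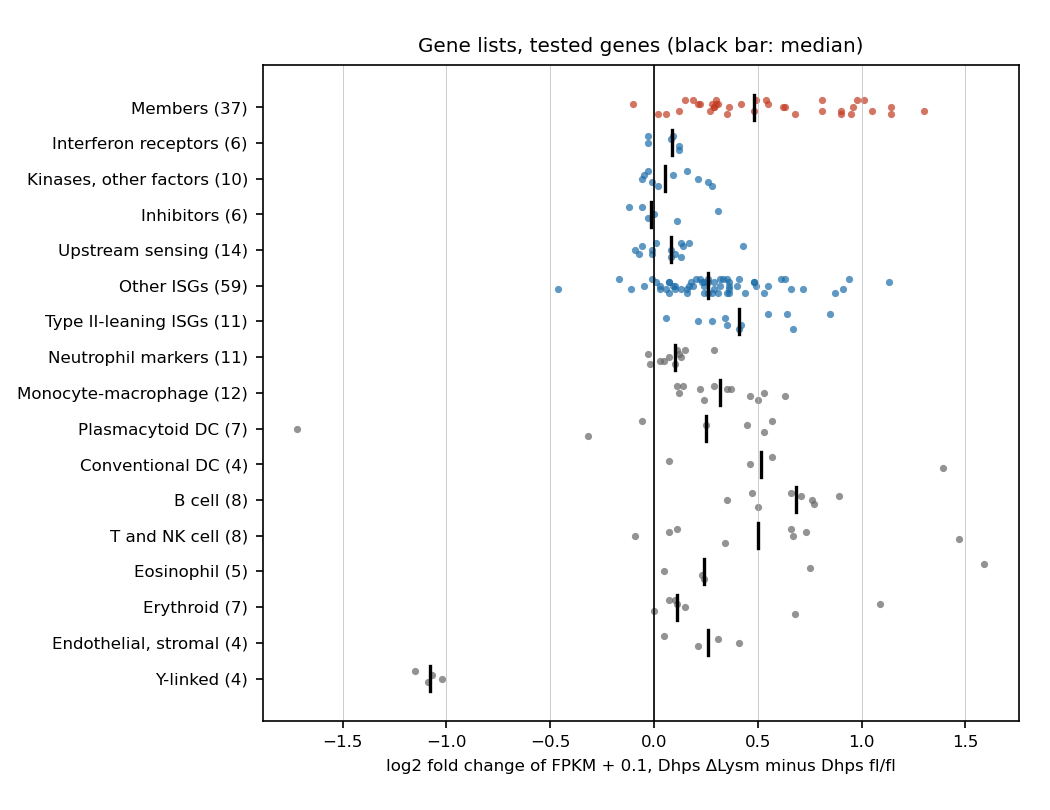
Log2 fold changes (x axis, *Dhps*ΔLysm minus *Dhps* fl/fl on log2(FPKM + 0.1)) of the members (red), other interferon pathway lists (blue) and marker lists (grey), 1 point per tested gene, with the number tested in brackets and the median as a black bar. The members had a median of 0.48, B cell markers 0.68, monocyte and macrophage markers 0.32, interferon receptors 0.08 and Y-linked genes -1.08.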

How the data were processed

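PMN-MDSCs sorted from neonatal spleen were profiled by bulk RNA sequencing in 4 libraries. The authors filtered reads with Cutadapt, aligned them with HISAT2 to mm10 (per the submitters' processing notes) and computed the deposited FPKM per gene with StringTie and ballgown; the annotation and any use of strand are not given in the sources used here. FPKM scale fragments by transcript length and mapped fragments, so reads of near-identical genes may be divided between them.

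From the deposited FPKM, log2(FPKM + 0.1) was fitted with limma 3.58.1 in R 4.3.3 (mean-variance trend, no block) where the mean of a gene reached 0.1 FPKM, with Benjamini-Hochberg adjustment and a threshold of 0.05. The fit was tested on simulated data. Gene models came from GENCODE M21 (GRCm38), in which 28511 of 28585 identifiers and all 39 members were found. Promoters came from RefSeq, and were aligned with Biopython 1.88. The depth of each library was estimated from FPKM steps of single-exon genes of 200 to 1500 bases. Fragments were taken from FPKM, the longest transcript and this depth, so they are approximate. Python 3.11.15 was used for the other steps.

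The members and all lists were chosen with earlier results of these data known. Named were all members, *Dhps*, every receptor, *Jak1*, *Tyk2*, pathway genes whose mean reached 1 FPKM at an unadjusted p under 0.05, and the most abundant marker of each list. *Lyz2*, *Xist*, *C1qb* and a few other markers and pathway genes were named after their values were seen. Alternatives were other pseudocounts, filters, scalings, no trend, a replicate block and leaving out each library. Count models were not run, since the files hold no counts. Some genes that this rule covers are not reported here.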

Additional observations from a re-analysis of the deposited data

How the results depend on the processing

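Among the alternatives, other filters, no trend and the replicate block cannot alter a fold change, so their agreement in direction was fixed in advance. Of 475 log2 fold changes of members under 13 alternatives, these included, 470 kept their direction and their side of an adjusted p of 0.05, which no member passed in any. The 5 that turned sign were *Herc6* with TPM scaling (-0.005), with quantile normalization (-0.003) and with 1 library left out (-0.05 to 0.10), and *Samd9l* with 1 library left out (-0.061 to 0.19); the cause was not tested. The median over members, 0.48, was 0.29 with a pseudocount of 1 and 0.35 among genes of at least 1 FPKM, and 0.41 to 0.50 with 1 library left out. Members higher at an unadjusted p under 0.05 numbered 14 to 20 with 1 library left out and 18 to 24 otherwise (25 in the report), and members lower without overlap 1 to 2.

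Over all genes, 1 passed the adjusted threshold, but 0 with a pseudocount of 0.01, with no filter, under the replicate block or with 1 library left out (0 to 0), 2 with quantile normalization and 4 among genes of at least 1 FPKM. Genes at the unadjusted threshold with 1 library left out numbered 412 to 946 higher and 279 to 662 lower, and 222 were lower among genes of at least 1 FPKM. Pathway genes higher at that threshold numbered 32, 21 without the variance trend and 11 to 23 with 1 library left out. Pathway genes lower numbered 1, 2 with TPM scaling and with quantile normalization, and 0 with a pseudocount of 0.01, among genes of at least 1 FPKM, under the replicate block and with 1 library left out (0 to 0). Markers of cell types other than neutrophils numbered 4 to 16 higher and 0 to 1 lower with 1 library left out.

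The labels do not say whether replicate numbers pair the libraries, and the paper describes the pups of the genotypes as littermates. Across 10629 genes, differences of replicate 1 minus 2 had a Pearson r of -0.0567 between genotypes. A low correlation cannot tell whether libraries of the same number shared a litter or a run. With the replicate block, 21 members were higher at the unadjusted threshold and 0 passed the adjusted one. With a library left out, the lone library of its genotype was assumed to vary like the others. The files hold no counts, so the precision of low genes is known only approximately.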
